A study of Mus musculus with 34 samples.

Results

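The 7 genes described here are Hes1, Hes5, Hes6, Hey1, Hey2, Heyl and Nrarp, a set of transcripts read out when Notch signaling is studied. They were taken by gene symbol from 3 tables of RNA sequencing counts, which hold 30750 genes in all, and all 7 were present in each table. All libraries were made from mouse cells or tumors of small cell lung cancer (SCLC), which has neuroendocrine features. The drug was bomedemstat (BOM), which inhibits LSD1, a histone demethylase encoded by Kdm1a. In the first experiment the cultured lines RP-116, RP-48 and G8545 received BOM or the solvent DMSO for 96 h, so that each group held 3 libraries, 1 from each line. A further experiment used cultured RP-48OVA-LLO190 cells kept for 10 d in BOM with interferon gamma (IFNg) added for the final 48 h (n = 2), DMSO with IFNg (n = 3), BOM (n = 2) or DMSO (n = 3). In the last, flank tumors grown from RP-48OVA-LLO190 cells in immunocompetent mice were labelled as treated for 16 d with BOM plus an antibody against the checkpoint receptor PD-1 (anti-PD1; n = 4), anti-PD1 (n = 5), BOM (n = 4) or vehicle (n = 5). The 10 d cultures and all tumors thus rest on 1 line, and the tumors also hold host cells. Whether replicate culture libraries came from separate cultures is not stated in the labels, and p-values for them therefore reflect a spread that may be technical.

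Notch receptors are cut after they bind a ligand on a neighboring cell, and the released intracellular part enters the nucleus and joins the DNA-binding protein RBPJ to switch on target genes. HES1, HES5, HEY1, HEY2 and HEYL are basic helix-loop-helix repressors among these targets, and in the lung HES1 opposes neuroendocrine differentiation. NRARP is a small ankyrin-repeat protein that is induced by Notch and inhibits the Notch complex. HES6 carries the family name but works against HES1 and is expressed with proneural factors. Notch activity opposes the neuroendocrine state of SCLC.

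Sequences before the start site were available here in the RefSeq promoter table (GRCm38.p6) for Hes5, Hes6, Hey2 and Nrarp. They were searched on both strands for GTGGGAA, the sequence that RBPJ binds, for its 6-letter core TGGGAA, which lies within it, and for CACNAG, a sequence bound by HES repressors. The window ran from 250 bases before to 50 bases after the start. Hes5 and Hey2 each held 2 matches to GTGGGAA, 1 on each strand. The matches began 226 and 83 bases before the start in Hes5 and 207 and 4 bases before it in Hey2. Among 32851 promoters, 6.38% held at least 1 match and 0.256% held at least 2. The pair of Hes6 promoters and the Nrarp promoter held no GTGGGAA or TGGGAA, which says only that these letters are not in these windows. TGGGAA stood in 25.6% of all promoters. CACNAG, found in 42.5% of all promoters, had 2 matches in 1 of the Hes6 promoters and 2 in the Nrarp promoter. The Hes5 stretch (chr4:154960673-154960932, plus strand) and the Hey2 stretch (chr10:30842774-30843033, minus strand) are shown because they hold the paired matches. Each runs 5′ to 3′ along the gene's strand to the first 10 bases from the start, and capitals mark TGGGAA or its complement.
Hes5: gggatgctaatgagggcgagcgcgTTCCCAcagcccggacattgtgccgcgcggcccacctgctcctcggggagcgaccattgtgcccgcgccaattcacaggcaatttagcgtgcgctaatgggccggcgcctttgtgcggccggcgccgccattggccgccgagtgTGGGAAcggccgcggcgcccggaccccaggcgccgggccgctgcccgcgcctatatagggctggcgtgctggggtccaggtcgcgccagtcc
Hey2: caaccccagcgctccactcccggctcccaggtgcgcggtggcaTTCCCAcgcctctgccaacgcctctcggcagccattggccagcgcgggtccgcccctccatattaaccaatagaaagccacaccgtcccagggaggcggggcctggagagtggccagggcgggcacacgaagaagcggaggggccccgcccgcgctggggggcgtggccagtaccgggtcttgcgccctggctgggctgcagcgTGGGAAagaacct
A match is a description of the letters and not evidence of binding.

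In the mm10 annotation used here (GENCODE M21) Hes1 lies on chromosome 16 from 30064384 to 30067796 (ENSMUSG00000022528.8), Hes5 on chromosome 4 from 154960923 to 154962371 (ENSMUSG00000048001.7) and Hes6 on chromosome 1 from 91411483 to 91414038 (ENSMUSG00000067071.8). Hey1 lies on chromosome 3 from 8663359 to 8667256 (ENSMUSG00000040289.8), Hey2 on chromosome 10 from 30832359 to 30842801 (ENSMUSG00000019789.9), Heyl on chromosome 4 from 123233556 to 123249875 (ENSMUSG00000032744.4) and Nrarp on chromosome 2 from 25180758 to 25183339 (ENSMUSG00000078202.3). Counts cover all exons of a gene. Hes5 and Nrarp overlap predicted genes on the opposite strand (Gm20421 and Gm38287), and the library kit does not mark the strand, so reads of such a pair cannot be told apart.

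Library totals ran from 8712025 to 9968681 counts at 96 h, from 5896627 to 9044398 at 10 d and from 5638353 to 82205546 in the tumors. All 12 neuroendocrine markers examined, among them Chga and Insm1, had counts in every library. The markers of endothelium, pericytes, fibroblasts, macrophages and T cells were also present in the tumors. A pair of tumors stood apart: the libraries labelled vehicle tumor 1 (82205546 counts) and vehicle tumor 2 (13150056 counts). Over the tested genes, deviations from the mean of all tumors in vehicle tumor 1 correlated with the mean of the BOM plus anti-PD1 tumors by r = 0.42, with the mean of the BOM tumors by r = 0.33 and with the mean of vehicle tumors 3 to 5 by r = -0.41, as a description across genes. For vehicle tumor 2 the values were 0.32, -0.04 and -0.26. Both thus correlated negatively with the other vehicle tumors. Whether the labels are right was not tested, and every value against vehicle depends on them. Calls of the members in BOM-treated groups against vehicle are therefore given with and without these libraries, a choice made after seeing the data. In culture and in tumors Kdm1a stayed detected in every library, at means of 178 CPM with BOM and 207 CPM with DMSO at 10 d, and of 437 CPM in BOM tumors and 508 CPM in vehicle tumors.

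Levels are counts scaled to the library total (CPM), and levels of different genes are compared per kilobase of exon (CPM per kb). Hes6 was the most abundant member in every group. In BOM cells at 10 d, Hes6 had 64.9 ± 13.7 CPM per kb (SD, n = 2), Hey1 14.2 ± 1.68, Hes1 7.04 ± 0.859, Hes5 5.14 ± 0.310, Nrarp 1.86 ± 0.0396, Hey2 0.547 ± 0.0240 and Heyl 0.0913 ± 0.0394. In DMSO cells the order was Hes6 with 61.0 ± 6.40 CPM per kb (SD, n = 3), Hey1 4.004 ± 0.483, Hes1 2.02 ± 0.434, Nrarp 1.59 ± 0.0731, Hes5 0.988 ± 0.143, Hey2 0.187 ± 0.120 and Heyl 0.111 ± 0.0224. Hes1 and Nrarp, and likewise Hey2 and Heyl, differed by less than the larger of their SDs in DMSO cells, and Hes5 stood above Nrarp in BOM cells and below it in DMSO cells. In BOM tumors the order was Hes6 (209 ± 15.7 CPM per kb, SD, n = 4), Hes1 (16.6 ± 1.87), Hey1 (9.39 ± 0.371), Nrarp (4.38 ± 0.671), Hes5 (2.49 ± 0.543), Hey2 (0.995 ± 0.195) and Heyl (0.951 ± 0.449). In vehicle tumors Hey1 (10.1 ± 0.795 CPM per kb, SD, n = 5) stood beside Hes1 (8.65 ± 3.97), with Nrarp (3.26 ± 0.596), Hes5 (0.959 ± 0.833), Heyl (0.8289 ± 0.298) and Hey2 (0.770 ± 0.159) below them. Over all vehicle tumors the neighbours among the last 3 differed by less than the larger of their SDs, as did Hey1 and Hes1. In vehicle tumors 3 to 5 alone Hey1 (10.4 ± 1.01 CPM per kb, SD, n = 3) stood above Hes1 (5.84 ± 0.756) by more than either SD, followed by Nrarp (3.34 ± 0.7098), Heyl (0.922 ± 0.381), Hey2 (0.723 ± 0.202) and Hes5 (0.440 ± 0.245).

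The 10 d comparison asked what long exposure to the inhibitor changes in 1 cell line, with and without IFNg. Without IFNg, 3 members rose with BOM, the repressor genes Hes1, Hes5 and Hey1, and none fell. Of all 15230 genes tested 20.3% were called and 12.1% were called higher, and the call was an adjusted p under 0.05 in edgeR's quasi-likelihood test with Benjamini-Hochberg adjustment over all genes. Of the 7 members 6 could be tested, since Heyl was too low to pass the filter on low counts.

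Hey1 had 42.5 and 50.3 CPM in the BOM libraries, against 12.8, 11.6 and 14.8 CPM in the DMSO libraries. The groups did not overlap, a property of 29.8% of all tested genes in the higher direction, and the log2 fold change was 1.76 ± 0.19 (SE; adjusted p = 3.16e-06, edgeR). Hes1 had 15.6 and 13.1 CPM with BOM, against 3.35, 3.93 and 5.09 CPM with DMSO. Every BOM library again lay above every DMSO library (log2 fold change 1.73 ± 0.28, adjusted p = 0.000191, edgeR). Hes5 had 7.30 and 6.70 CPM with BOM, against 1.54, 1.15 and 1.36 CPM with DMSO, which is the largest log2 fold change among the members called here (2.29 ± 0.35, adjusted p = 0.000133, edgeR). These 3 calls held under all 16 alternatives run for each.

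Hey2 had 2.43 and 2.59 CPM with BOM, against 0.419, 1.47 and 0.678 CPM with DMSO, from 15 and 17 counts against 3 to 9. The groups did not overlap, but the log2 fold change of 1.49 ± 0.57 did not pass (adjusted p = 0.0752, edgeR). It passed without DMSO library 2 (adjusted p = 0.0336, edgeR). Nrarp, the feedback inhibitor, had 4.87 and 4.72 CPM with BOM and 4.19, 4.26 and 3.90 CPM with DMSO (log2 fold change 0.15 ± 0.35, adjusted p = 0.809, edgeR). Its groups did not overlap either, as for 29.8% of tested genes in the higher direction. Hes6 had 99.8 and 135 CPM with BOM and 97.7, 120.5 and 113 CPM with DMSO, so its groups overlapped (0.03 ± 0.13, adjusted p = 0.920, edgeR). Heyl had 2 and 4 counts with BOM and 3 to 5 counts with DMSO, too few to show a difference at this depth.

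**Figure D1:**
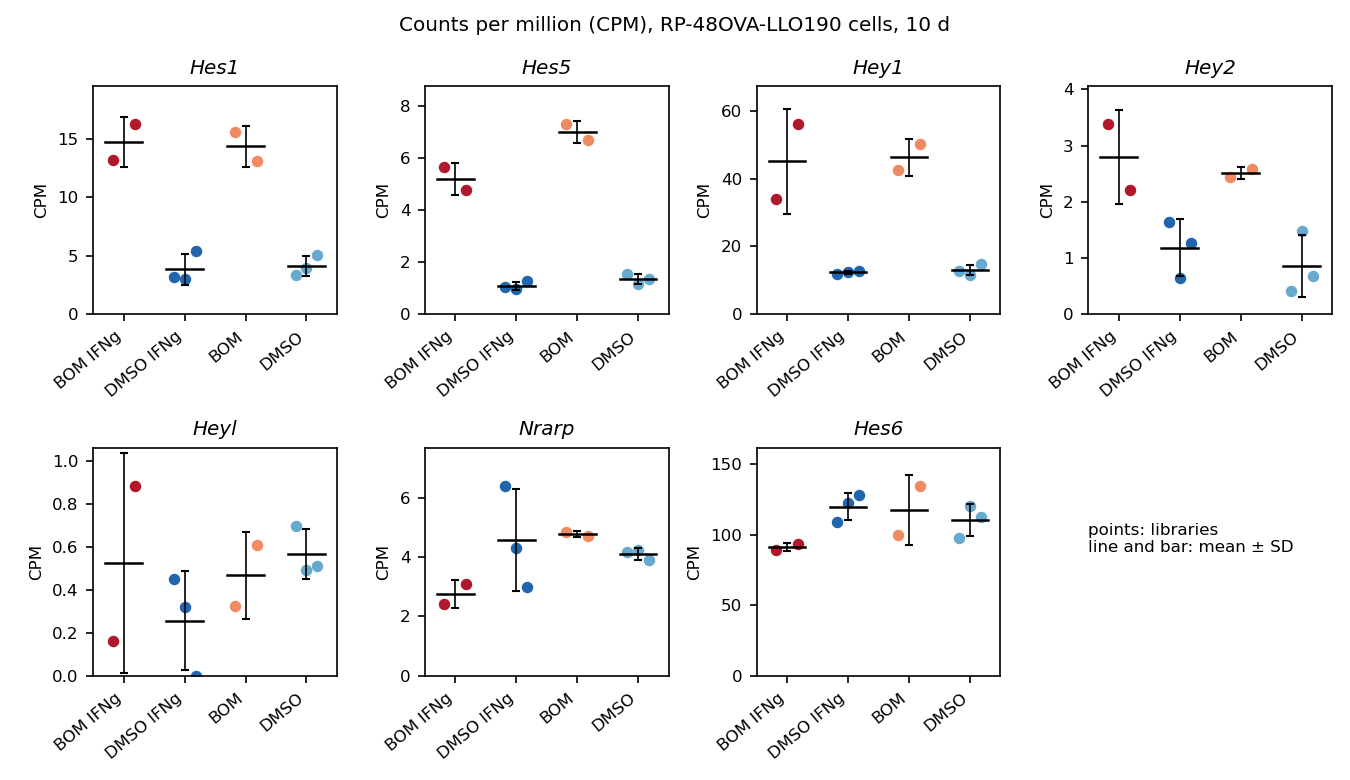
CPM of each member in the 10 RP-48OVA-LLO190 cultures at 10 d (vertical axis, linear from 0), with the groups BOM IFNg, DMSO IFNg, BOM and DMSO from left to right, points for libraries and lines and bars for the mean and SD. Hes1, Hes5 and Hey1 lie higher in both BOM groups than in both DMSO groups, while Hes6 overlaps between BOM and DMSO without IFNg and lies lower with BOM where IFNg was given.

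With IFNg the same 3 members rose with BOM and Hes6 fell, where 23.1% of all genes were called (13.0% higher and 10.1% lower). Hes1 had 13.2 and 16.3 CPM in BOM IFNg cells, against 3.14, 3.03 and 5.37 CPM in DMSO IFNg cells (log2 fold change 1.87 ± 0.28, adjusted p = 6.99e-05, edgeR). Hes5 had 5.64 and 4.75 CPM in BOM IFNg cells, against 1.05, 0.958 and 1.26 CPM in DMSO IFNg cells (2.16 ± 0.37, adjusted p = 0.000329, edgeR). Hey1 had 34.2 and 56.2 CPM in BOM IFNg cells, against 12.0, 12.5 and 12.6 CPM in DMSO IFNg cells (1.82 ± 0.19, adjusted p = 1.85e-06, edgeR). In all 3 genes the groups did not overlap, as for 29.1% of tested genes in the higher direction.

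Hes6, the member that opposes HES1, had 89.2 and 93.5 CPM in BOM IFNg cells, against 109, 123 and 128 CPM in DMSO IFNg cells. Its log2 fold change was -0.46 ± 0.13 (adjusted p = 0.0177, edgeR). The call ended without BOM IFNg library 1 (adjusted p = 0.116), BOM IFNg library 2 (adjusted p = 0.0630) or DMSO IFNg library 3 (adjusted p = 0.0800, edgeR). Hey2 had 3.38 and 2.21 CPM in BOM IFNg cells and 1.64, 0.639 and 1.26 CPM in DMSO IFNg cells (1.13 ± 0.52, adjusted p = 0.138, edgeR). Nrarp had 2.42 and 3.10 CPM in BOM IFNg cells and 6.43, 4.31 and 3.002 CPM in DMSO IFNg cells, so its groups overlapped (-0.78 ± 0.36, adjusted p = 0.138, edgeR).

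IFNg itself called none of the members. It called 2.27% of genes in DMSO cells and 2.06% in BOM cells. In DMSO cells the 6 tested members had log2 fold changes for IFNg between -0.30 and 0.50. In BOM cells they lay between -0.77 for Nrarp and 0.13 for Hey2, with Hes6 at -0.36 ± 0.14 (adjusted p = 0.348, edgeR). The test of whether the BOM difference itself differed with IFNg called 0 of 15230 genes in edgeR (4.76% had an unadjusted p under 0.05, and DESeq2 called 13). With the replicate number as a block edgeR called 10 genes in this test, none of them a member. In the same test Hes6 had a value of -0.48 ± 0.18 (adjusted p = 0.898), Nrarp -0.93 ± 0.50, and Hes1, Hes5 and Hey1 0.14 ± 0.40, -0.13 ± 0.55 and 0.06 ± 0.28.

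Genes used as markers of other cell types also moved in these cultures of 1 line. The summed level of 12 endothelial markers was 43.4 and 60.4 CPM with BOM, against 24.9 to 26.7 CPM with DMSO, and 63.9 and 65.1 CPM in BOM IFNg cells, against 26.1 to 33.7 CPM in DMSO IFNg cells. That of 12 fibroblast markers was 55.7 and 62.5 CPM with BOM, against 18.8 to 23.7 CPM with DMSO, and 43.5 and 44.2 CPM in BOM IFNg cells, against 13.9 to 18.5 CPM in DMSO IFNg cells. The sums of both lists were thus higher in every BOM library than in every DMSO library. That of 10 pericyte and smooth muscle markers was 56.8 and 64.9 CPM with BOM, against 49.1 to 54.1 CPM with DMSO, and 37.9 and 53.8 CPM in BOM IFNg cells, against 38.4 to 45.5 CPM in DMSO IFNg cells, with 7 to 9 of the 10 detected in a library. Of the endothelial list, Cdh5, Tie1 and Cldn5 had 0 counts in both BOM libraries and Tie1 in all DMSO libraries, while none was at 0 in both BOM IFNg libraries. Over all 10 libraries no endothelial marker was at 0 throughout, and Rgs5 of the pericyte list and Mfap5 of the fibroblast list were. The part of these genes in the result was not tested.

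The 96 h comparison asked which transcripts the inhibitor changes within days in 3 lines. No member passed the edgeR test, which called 0 of 13333 genes (0.00%; 6.09% had an unadjusted p under 0.05), while DESeq2 called 59 genes and among them Hes1, Hes5 and Hey1. Those 3 members were higher with BOM in 3 of 3 lines, as were 13.8% of all tested genes.

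Hes5 had 1.13 CPM with BOM and 0.230 CPM with DMSO in RP-116, from 10 and 2 counts. In RP-48 it had 8.13 CPM with BOM and 2.05 CPM with DMSO, and in G8545 16.5 CPM with BOM and 1.10 CPM with DMSO. The ratios of these libraries were 4.94 in RP-116 (95% exact counting interval 1.05 to 46.3), 3.97 in RP-48 (2.38 to 6.92) and 15.0 in G8545 (8.14 to 30.5), where intervals cover counting error only. The log2 fold change over the lines was 2.81 ± 0.46 (adjusted p = 0.222 in edgeR and adjusted p = 0.00395 in DESeq2).

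Hes1 had 13.03, 34.4 and 9.87 CPM with BOM in RP-116, RP-48 and G8545, against 6.66, 17.5 and 2.31 CPM with DMSO in the same lines. The ratio was lowest in RP-116 (1.96, interval 1.42 to 2.73) and RP-48 (1.97, 1.63 to 2.39) and highest in G8545 (4.27, 2.69 to 7.05). Its log2 fold change was 1.26 ± 0.27 (adjusted p = 0.318 in edgeR and adjusted p = 0.0418 in DESeq2). Hey1 had 16.2, 52.3 and 122 CPM with BOM in the 3 lines, against 11.7, 25.2 and 27.4 CPM with DMSO. Its ratios were 1.38 (interval 1.07 to 1.80) in RP-116, 2.07 (1.77 to 2.43) in RP-48 and 4.44 (3.89 to 5.08) in G8545, for a log2 fold change of 1.25 ± 0.30 (adjusted p = 0.408 in edgeR and adjusted p = 0.0177 in DESeq2). All 3 members thus had their highest ratio in G8545, a difference between lines that 1 library per treatment cannot test. Over all genes with at least 20 counts in the pair, BOM and DMSO libraries also differed most in G8545. Chi-square per degree of freedom, a measure of departure from counting noise, was 35.2 in G8545, 13.1 in RP-48 and 6.49 in RP-116. Without G8545, edgeR called 149 genes and among them Hes1 (adjusted p = 0.0308) and Hes5 (adjusted p = 0.0180).

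Hes6, Nrarp and Hey2 did not lie on the same side of DMSO in all lines, and Heyl was higher with BOM in 3 of 3 lines, with few counts in RP-116 and RP-48. Hes6 had 169 CPM with BOM and 481 CPM with DMSO in G8545, a ratio of 0.352 (interval 0.333 to 0.372). In RP-116 it had 218 CPM with BOM and 233 CPM with DMSO, and in RP-48 282 CPM with BOM and 276 CPM with DMSO, so the log2 fold change over the lines was -0.53 ± 0.28 (adjusted p = 0.879, edgeR). Heyl, which did not pass the filter, had 66 counts with BOM and 8 with DMSO in G8545 (6.65 and 0.803 CPM; ratio 8.28, interval 3.96 to 19.96). In RP-116 it had 4 counts with BOM and 3 with DMSO, and in RP-48 2 with BOM and 0 with DMSO. Nrarp had 6.02 CPM with BOM and 3.45 CPM with DMSO in RP-48, but 2.12 CPM with BOM and 4.82 CPM with DMSO in G8545 (log2 fold change over the lines -0.10 ± 0.43, adjusted p = 0.992, edgeR). Hey2 had 2.61 CPM with BOM and 3.56 CPM with DMSO in RP-48 and 2.92 CPM with BOM and 1.61 CPM with DMSO in G8545 (0.22 ± 0.48, adjusted p = 0.977, edgeR), with 1 and 0 counts in RP-116.

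**Figure D2:**
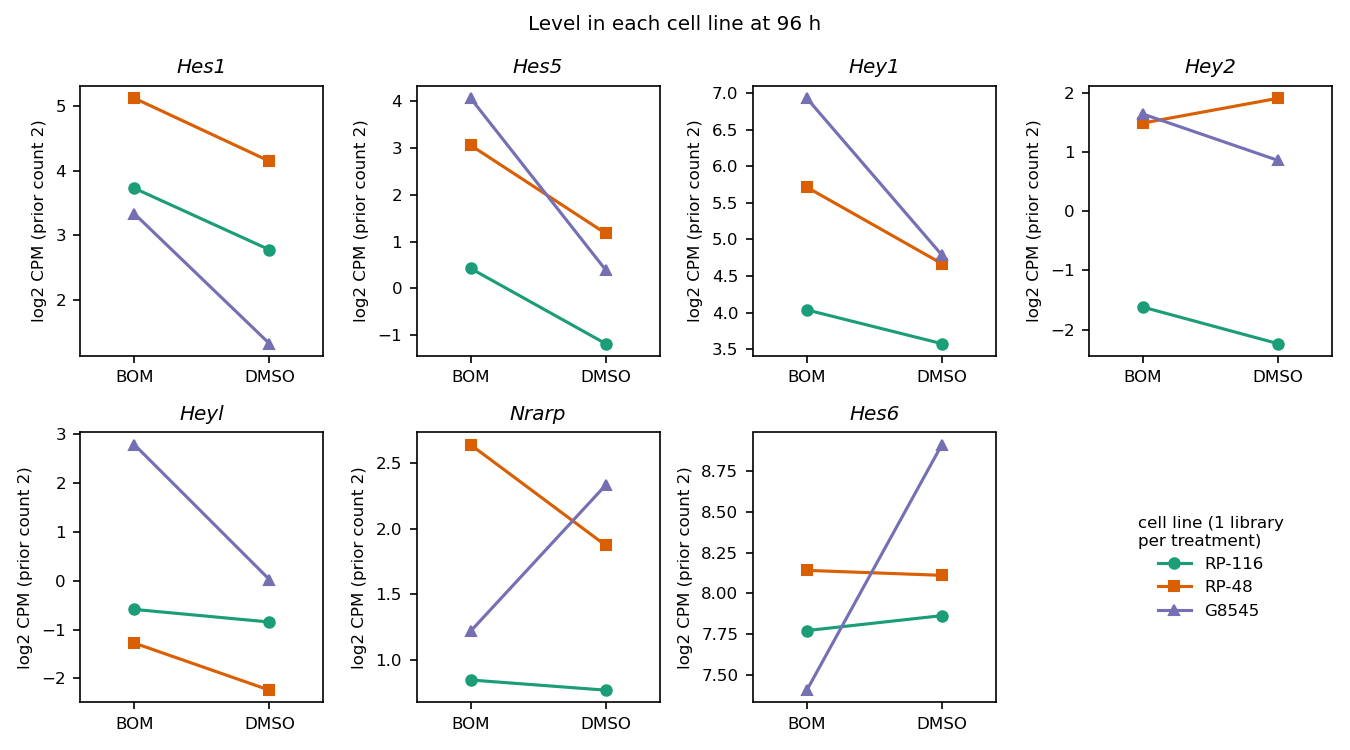
log2 CPM (prior count 2; vertical axis, a log scale with its own range in each panel) of each member at 96 h with BOM (left) and DMSO (right), 1 line per cell line and 1 library per point. Hes1, Hes5, Hey1 and Heyl are higher with BOM in all 3 lines, Heyl from 4 counts or fewer in RP-116 and RP-48, and Hes6 differs mainly in G8545, with 169 CPM against 481 CPM.

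The lines also differed from each other with treatment as a term in the fit. Each line had 1 BOM and 1 DMSO library, and these served as its replicates. The spread behind the p-values was thus how far the BOM difference varied between lines. The fit had 2 residual degrees of freedom, and fewer where a line was left out. These p-values do not cover the spread of replicate cultures of a line. RP-116 was lower than the mean of RP-48 and G8545 in 3 members, where 35.8% of all genes were called and 19.3% were called lower. Hey2 had 1 and 0 counts in the BOM and DMSO libraries of RP-116, against 16 to 33 counts in the other lines. A floor of 3 counts is 0.340 CPM in the BOM and 0.344 CPM in the DMSO library of RP-116, and the fitted log2 fold change of -5.16 ± 0.86 (adjusted p = 0.00257, edgeR) depends on the prior count. Hes5 fell by 3.15 ± 0.58 on the log2 scale in RP-116 (adjusted p = 0.00429, edgeR) and Hey1 fell by 1.66 ± 0.34 (adjusted p = 0.00687, edgeR). Against RP-48, Hes1 in G8545 had a log2 fold change of -2.32 ± 0.34 (adjusted p = 0.00242, edgeR), where 21.0% of genes were called and 11.0% were called lower. Hes1 in RP-116 was not called (-0.19 ± 0.29, adjusted p = 0.658, edgeR), with -1.35 (adjusted p = 1.59e-05) against RP-48 alone and 1.02 (adjusted p = 0.112) against G8545 alone. Nrarp in RP-116 had -1.29 ± 0.49 (adjusted p = 0.0772) and passed against RP-48 alone (-1.54, adjusted p = 0.00216, edgeR). No member was called higher in either contrast.

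The tumor comparisons asked what the inhibitor and anti-PD1 change alone and together in mice. Beside anti-PD1, BOM raised Hes1, Hes5 and Hey2, where 32.1% of all 14332 genes tested were called and 15.7% were called higher. All 7 members could be tested. Hes1 had 30.6, 25.6, 46.7 and 31.1 CPM in BOM plus anti-PD1 tumors, against 13.5, 11.5, 15.7, 12.9 and 15.2 CPM in anti-PD1 tumors. The groups did not overlap, as for 13.3% of tested genes in the higher direction (log2 fold change 1.25 ± 0.25, adjusted p = 0.00104, edgeR). Hes5 had 2.80, 4.67, 4.93 and 2.698 CPM in BOM plus anti-PD1 tumors, against 0.635, 1.22, 0.880, 1.58 and 0.553 CPM in anti-PD1 tumors, again without overlap (1.92 ± 0.48, adjusted p = 0.00562, edgeR). Counts of Hes5 in the anti-PD1 tumors were 4 to 11. Both calls held under all 25 alternatives run for each.

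Hey2 had 5.33, 5.50, 4.02 and 3.98 CPM in BOM plus anti-PD1 tumors, against 2.06, 3.99, 2.29, 2.15 and 3.87 CPM in anti-PD1 tumors. Its log2 fold change of 0.68 ± 0.25 was just inside the threshold (adjusted p = 0.0450, edgeR) and the groups overlapped, with the highest anti-PD1 tumor at 3.99 CPM. The call ended under 11 of the 25 alternatives, among them no filter (adjusted p = 0.0861), a fit of only these groups (0.0820) and leaving out vehicle tumors 1 and 2 (adjusted p = 0.0572). The highest adjusted p without 1 tumor was 0.117, without BOM plus anti-PD1 tumor 2. The call also ended without BOM plus anti-PD1 tumor 1 (0.109), anti-PD1 tumors 1, 3 and 4 (adjusted p = 0.0884, 0.0851 and 0.0965), BOM tumors 3 and 4 (0.0514 and 0.0502) or vehicle tumor 2 (0.0528).

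Hey1, which rose in culture, had 35.1, 39.2, 39.7 and 30.1 CPM in BOM plus anti-PD1 tumors and 31.9, 31.6, 33.6, 29.8 and 27.1 CPM in anti-PD1 tumors (log2 fold change 0.20 ± 0.09, adjusted p = 0.0934, edgeR). It passed without BOM plus anti-PD1 tumor 4 (0.29, adjusted p = 0.0189, edgeR). Hes6 (0.04 ± 0.09), Nrarp (-0.06 ± 0.17) and Heyl (-0.31 ± 0.39) were not called, with adjusted p of 0.743, 0.809 and 0.576 in edgeR. Their groups overlapped.

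Against vehicle, BOM alone raised 1 member, Hes1, where 14.0% of genes were called and 5.92% were called higher. Hes1 had 34.3, 28.3, 36.9 and 35.6 CPM in BOM tumors. Vehicle tumors 1 and 2 had 28.6 and 23.9 CPM and vehicle tumors 3 to 5 had 13.1, 12.4 and 10.2 CPM. Vehicle tumor 1 thus overlapped with the BOM tumors (log2 fold change 0.89 ± 0.24, adjusted p = 0.0210, edgeR). The call ended without BOM tumor 4 (adjusted p = 0.0542), vehicle tumor 3 (0.0503) or vehicle tumor 4 (adjusted p = 0.0603, edgeR), and in a fit of only these groups (adjusted p = 0.0620). Without vehicle tumors 1 and 2 the log2 fold change of Hes1 was 1.49 ± 0.18 (adjusted p = 1.81e-05, edgeR), where 23.1% of genes were called and 11.2% were called higher. The 4 BOM tumors lay above vehicle tumors 3 to 5 without overlap, as for 17.6% of tested genes.

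Hes5 had 3.10, 4.44, 2.72 and 3.31 CPM in BOM tumors, against 3.14 and 1.60 CPM in vehicle tumors 1 and 2 and 0.532, 0.307 and 0.962 CPM in vehicle tumors 3 to 5. It did not pass over all tumors (log2 fold change 1.15 ± 0.44, adjusted p = 0.0836, edgeR) and did without vehicle tumors 1 and 2 (2.42 ± 0.44, adjusted p = 0.000695, edgeR), as without vehicle tumor 1 alone (1.85, adjusted p = 0.00361, edgeR). In those libraries the receptor gene Notch1 had 52.3 and 32.2 CPM, against 3.02, 5.21 and 3.57 CPM in vehicle tumors 3 to 5, and 90.5 CPM on average in BOM tumors.

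Nrarp had 9.85, 9.88, 12.1 and 13.3 CPM in BOM tumors and 9.21, 6.996, 7.45, 7.66 and 10.7 CPM in vehicle tumors, with overlap (0.41 ± 0.17, adjusted p = 0.105, edgeR). Without vehicle tumors 1 and 2 Nrarp had 0.37 ± 0.20 (adjusted p = 0.199, edgeR). Hey1 had 30.6, 31.7, 31.3 and 29.0 CPM in BOM tumors and 32.5, 31.3, 30.5, 37.1 and 33.8 CPM in vehicle tumors (-0.12 ± 0.09, adjusted p = 0.422, edgeR). Without vehicle tumors 1 and 2 its value was -0.16 ± 0.10 (adjusted p = 0.310). Hes6 (0.13 ± 0.09), Hey2 (0.35 ± 0.24) and Heyl (0.20 ± 0.36) were not called (adjusted p = 0.338, 0.374 and 0.772, edgeR), nor were they without vehicle tumors 1 and 2.

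**Figure D3:**
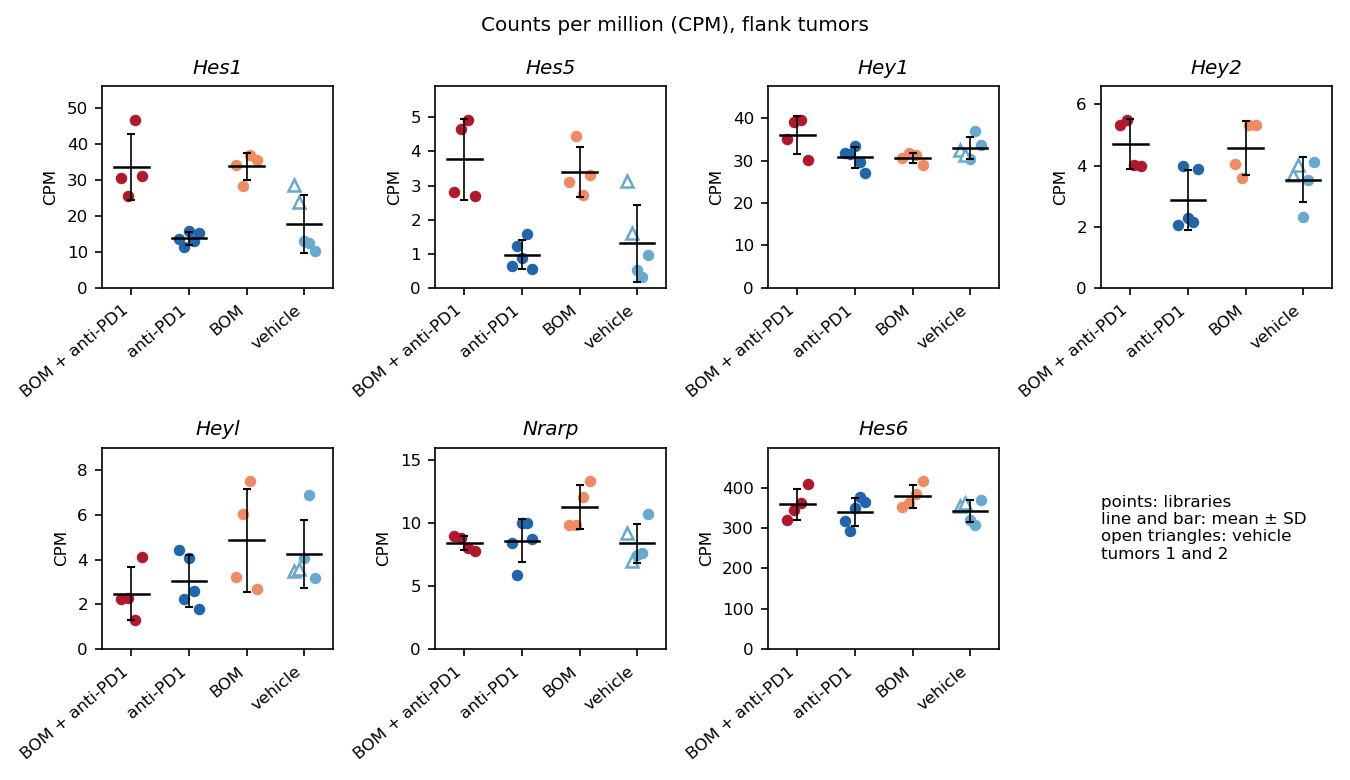
CPM of each member in the 18 flank tumors (vertical axis, linear from 0), with the groups BOM plus anti-PD1, anti-PD1, BOM and vehicle from left to right, points for tumors, lines and bars for the mean and SD, and open triangles for vehicle tumors 1 and 2. Hes1 and Hes5 lie higher in both BOM groups than in anti-PD1 tumors and in vehicle tumors 3 to 5, and Hey1 stays between 27.1 and 39.7 CPM in all groups.

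BOM plus anti-PD1 against vehicle called Hes1 alone among the members, where 10.8% of genes were called and 5.34% were called higher (log2 fold change 0.88 ± 0.24, adjusted p = 0.0273, edgeR). That call ended in a fit of only these groups (adjusted p = 0.113) and without any 1 of 5 tumors: BOM plus anti-PD1 tumors 1 and 3 (adjusted p = 0.0501 and 0.0912) and vehicle tumors 3, 4 and 5 (0.0693, 0.0805 and 0.0642), as it did with the replicate block (0.0575). Without vehicle tumors 1 and 2 Hes1 (1.49 ± 0.18, adjusted p = 1.90e-05) and Hes5 (2.59 ± 0.44, adjusted p = 0.000400, edgeR) rose, where 22.8% of genes were called and 12.1% were called higher. No other member was called without those tumors, with Heyl at -0.93 ± 0.43 (adjusted p = 0.140, edgeR). Hes5 over all tumors had 1.31 ± 0.43 (adjusted p = 0.0589, edgeR; adjusted p = 0.0447 in DESeq2).

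Anti-PD1 alone called 0 of 14332 genes in edgeR (9.76% had an unadjusted p under 0.05, and DESeq2 called 86). Hes1 had a log2 fold change of -0.37 ± 0.24 over all tumors and 0.23 ± 0.18 without vehicle tumors 1 and 2, and Hes5 had -0.61 ± 0.47 and 0.67 ± 0.47, so the sign of both rested on those libraries. BOM plus anti-PD1 against BOM also called 0 genes in edgeR (7.51% had an unadjusted p under 0.05, and DESeq2 called 8). There Nrarp had 8.97, 8.85, 8.05 and 7.81 CPM in BOM plus anti-PD1 tumors, all below the 9.85 to 13.3 CPM in BOM tumors. Groups in that order did not overlap for 2.76% of tested genes (-0.42 ± 0.18, adjusted p = 0.644, edgeR). Heyl had 2.24, 2.27, 1.30 and 4.12 CPM in BOM plus anti-PD1 tumors and 3.24, 6.05, 7.49 and 2.67 CPM in BOM tumors (-0.96 ± 0.39, adjusted p = 0.627, edgeR). The test of whether the BOM difference itself differed with anti-PD1 called 0 genes in edgeR (8.67% had an unadjusted p under 0.05, and DESeq2 called 6), with members between -0.51 for Heyl and 0.77 for Hes5. The values of Hes1 and Hes5 in that test turned from 0.37 ± 0.35 and 0.77 ± 0.65 over all tumors to -0.24 ± 0.24 and -0.51 ± 0.57 without vehicle tumors 1 and 2.

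Several members are also known as Notch targets in blood vessels, and in bulk samples fewer cells of a type and less RNA per cell cannot be told apart. All 12 endothelial markers had counts in every tumor, and their summed level was 214 to 256 CPM in BOM plus anti-PD1 tumors, 252 to 345 in anti-PD1 tumors, 199 to 309 in BOM tumors and 265 to 303 in vehicle tumors. The 10 pericyte and smooth muscle markers summed to 195 to 351 CPM in BOM plus anti-PD1 tumors and 211 to 355 in anti-PD1 tumors, and to 239 to 382 in BOM tumors and 241 to 313 in vehicle tumors, and all 10 had counts in every tumor. The 12 neuroendocrine markers summed to 2896 to 3528 CPM in BOM plus anti-PD1 tumors and 3376 to 3797 in anti-PD1 tumors, and to 3090 to 3569 in BOM tumors and 3243 to 3920 in vehicle tumors. Macrophage and monocyte markers (11 genes, all with counts in every tumor) summed to 594 to 1301 CPM in BOM plus anti-PD1 tumors (median 837) and 240 to 1157 in anti-PD1 tumors (median 353), and to 501 to 1240 in BOM tumors (median 744) and 531 to 1558 in vehicle tumors (median 579). The 9 T cell markers summed to 21.1 to 45.2 CPM in BOM plus anti-PD1 tumors (median 32.7) and 8.17 to 26.2 in anti-PD1 tumors (median 12.7), and to 10.7 to 39.1 in BOM tumors (median 13.7) and 11.5 to 35.9 in vehicle tumors (median 18.7). The 12 fibroblast markers summed to 427 to 771 CPM in BOM plus anti-PD1 tumors (median 539) and 287 to 2383 in anti-PD1 tumors (median 515). They summed to 581 to 2122 in BOM tumors (median 1139.8) and 651 to 1466 in vehicle tumors (median 840.0), so these groups overlapped. The 10 skeletal muscle markers summed to 3.93 to 179 CPM in BOM plus anti-PD1 tumors and 6.42 to 10.9 in anti-PD1 tumors. They summed to 5.08 to 1219 in BOM tumors and 9.40 to 149 in vehicle tumors. The 7 adipocyte markers summed to 21.3 to 181 CPM in BOM plus anti-PD1 tumors and 24.1 to 67.7 in anti-PD1 tumors. They summed to 20.4 to 300 in BOM tumors and 20.9 to 550 in vehicle tumors. The part of all these markers in the results on Hes1, Hes5 and Hey2 was not tested.

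**Figure D4:**
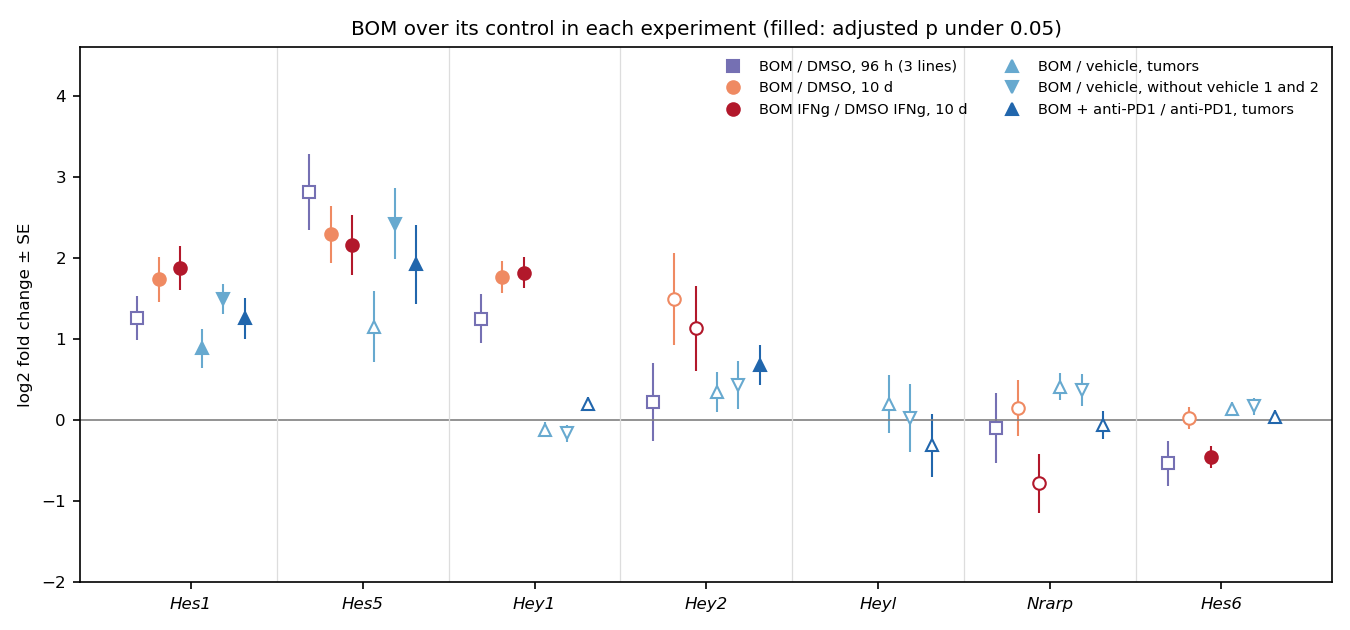
log2 fold change ± SE of BOM over its control (vertical axis) for each member in the 96 h, 10 d and tumor comparisons, with filled symbols at an adjusted p under 0.05 and open symbols otherwise. Hes1 and Hes5 lie above 0 in all comparisons, Hey1 at 1.25, 1.76 and 1.82 in culture but between -0.16 and 0.20 in tumors, and Heyl appears only where it could be tested.

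Set side by side, the log2 fold changes of BOM for Hey1 were 1.25 ± 0.30 at 96 h, 1.76 ± 0.19 at 10 d and 1.82 ± 0.19 at 10 d with IFNg, and in the tumors -0.12 ± 0.09 against vehicle and 0.20 ± 0.09 beside anti-PD1. For Hes1 they were 1.26 ± 0.27, 1.73 ± 0.28 and 1.87 ± 0.28 in culture and 0.89 ± 0.24 and 1.25 ± 0.25 in the tumors. For Hes5 they were 2.81 ± 0.46, 2.29 ± 0.35 and 2.16 ± 0.37 in culture and 1.15 ± 0.44 and 1.92 ± 0.48 in the tumors. The tables were normalized separately and the RNA differed (polyadenylated RNA at 96 h and in tumors, total RNA at 10 d, per the labels), so differences between experiments were not tested. The level of Hey1 was 46.4 ± 5.49 CPM (SD, n = 2) with BOM and 13.1 ± 1.58 CPM (n = 3) with DMSO at 10 d, and 30.7 ± 1.21 CPM (n = 4) in BOM tumors and 33.0 ± 2.60 CPM (n = 5) in vehicle tumors.

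Beyond the members, 53 genes of Notch signaling (receptors, ligands, Fringe modifiers, processing enzymes, the nuclear complex, antagonists, other HES and DEC genes and Groucho/TLE corepressors) were examined. In the 10 d cultures 46 could be tested, and with BOM 9 rose and 7 fell, where 20.3% of all genes were called and 12.1% were called higher (median log2 fold change 0.00, against -0.01 over all genes). The median over the 6 tested members was 1.61. The receptor genes Notch1 (3.26 ± 0.12, adjusted p = 1.66e-11) and Notch2 (1.39 ± 0.10, adjusted p = 2.56e-08) and the ligand genes Dll4 (0.96 ± 0.14, adjusted p = 8.00e-05) and Jag1 (0.78 ± 0.13, adjusted p = 0.000331, edgeR) rose. The nuclear coactivator gene Maml2 rose (1.54 ± 0.36, adjusted p = 0.00455), and Fbxw7, whose product marks the cleaved Notch for degradation, fell (-0.56 ± 0.12, adjusted p = 0.00284, edgeR). The others that rose were Furin and Adam10, which encode proteases that cut Notch, the DEC gene Bhlhe41 and the corepressor gene Tle1 (log2 fold changes from 0.45 to 0.77). The others that fell were the Fringe genes Lfng and Mfng, whose products add sugars to Notch, the coactivator gene Maml3, Dtx4 and the corepressor genes Tle4 and Tle6 (from -0.73 to -0.43). With IFNg 10 of the 46 rose and 9 fell, where 23.1% of all genes were called and 13.0% were called higher, with a median of -0.09.

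In the tumors 47 of the 53 could be tested. Beside anti-PD1, 13 rose and 5 fell with BOM, where 32.1% of all genes were called and 15.7% were called higher (median 0.12, against 0.20 over the 7 members and -0.01 over all genes). Against vehicle, over all tumors, 8 rose and 3 fell with BOM, where 14.0% of all genes were called, and 6 rose and 1 fell with BOM plus anti-PD1, where 10.8% were called. Notch1 rose beside anti-PD1 (4.0 ± 0.65, adjusted p = 0.000237, edgeR) and, over all tumors, against vehicle (2.08 ± 0.53, adjusted p = 0.0146, edgeR). The value against vehicle includes vehicle tumors 1 and 2, which had 52.3 and 32.2 CPM of Notch1, against 3.02 to 5.21 CPM in vehicle tumors 3 to 5. Values of these genes without both libraries are not given here. Jag1 rose beside anti-PD1 (1.89 ± 0.31, adjusted p = 0.000241), and Dll3, a ligand that inhibits Notch within the cell that makes it, fell (-1.06 ± 0.26, adjusted p = 0.00527, edgeR). Rbpj, the DNA-binding partner of Notch, fell slightly there (-0.25 ± 0.08, adjusted p = 0.0317, edgeR). The others that fell beside anti-PD1 were the ligand genes Dll1 (-1.001) and Jag2 (-0.31) and the Fringe gene Mfng (-0.52). At 96 h none of the 46 tested passed, and Notch1 had 2.74 ± 0.39 (adjusted p = 0.171, edgeR).

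Likeness to other genes was measured as the Pearson r of log2 CPM over the 18 tumors after group means were subtracted. It describes these tumors only. They differed in depth (5638353 to 82205546 counts) and in the summed markers of host cells. The part of these differences in the r values was not tested. Hes1 was most like Cradd (r = 0.92), Zfp750 (0.92), Rest (0.88), Itpr2 (0.85) and Cdc42ep1 (0.85). Rest, which encodes a repressor of neuronal genes, had 30.5 and 20.4 CPM in vehicle tumors 1 and 2, against 6.21, 5.21 and 3.44 CPM in vehicle tumors 3 to 5. Without those libraries none of the 5 stayed among the closest 5 (16 tumors). For Hes5 the closest were Tef, Cx3cl1, Eif4ebp2, Plcb3 and Gas1 (r from 0.84 to 0.85), and again none of the 5 stayed without them. The correlation of Hes1 with Hes5 was 0.53 over 18 tumors and -0.29 over 16.

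Heyl kept 4 of its 5 closest genes without those libraries. They were Slc2a13 (r = 0.88), Abcg2 (0.87), Metrn (0.85), Got1 (0.84) and Cspg4 (0.84), and all but Got1 stayed. Cspg4 is on the list of pericyte and smooth muscle markers, and was the only gene of that list among the 20 closest to Heyl. Without subtraction of group means, Fap and Col3a1 of the fibroblast list also stood among the 20. Without vehicle tumor 1 Thy1 of the fibroblast list did, and without vehicle tumors 1 and 2 Pdgfrb of the pericyte list. Whether Heyl belongs to a cell type was not tested. Hey1 was closest to Tnfrsf10b (r = 0.87), Depp1, Asah2, C9orf72 and Zfp9, and Hey2 to Mapk4 (r = 0.79), Whamm, Plekhn1, Fan1 and Large2, and each kept 3 of 5. Hes6 was closest to Slc35b1 (r = 0.91), Mrpl2, Exosc5, Fastk and Dus1l, of which 1 stayed. Nrarp was closest to Polr2f (r = 0.89), Ubl5, Selenow, Znhit1 and Rps9, of which 2 stayed. Over the 10 cultures at 10 d, no gene among the closest 5 of a tested member was among its closest 5 in the tumors.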

How the data were processed

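RNA was sequenced in 34 libraries. The authors deposited 3 tables of raw counts of reads per gene. Per the submitters' processing notes, the tools were STAR 2.7, Subread 2.0 with featureCounts, bcl2fastq and FastQC 0.11.9 and the build was mm10. Roles and settings are not given in the sources used here. Groups came from the sample labels. Each table was analysed alone with edgeR 4.0.16 in R 4.3.3: the default filter on low counts by group, TMM scaling, and a quasi-likelihood test over all groups of the table, with cell line as a term at 96 h. P-values were adjusted by Benjamini-Hochberg over all genes of a comparison, and a call is an adjusted p under 0.05. SEs were derived from the F statistic. CPM used library totals, and log2 CPM a prior count of 2. Intervals of ratios are 95% exact intervals, and intervals and floors (3 counts) cover counting error only.

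The 7 members, the rule to name all of them and their 5 most alike genes, and the gene lists were chosen with earlier results of these data known. The test script was tested on simulated data. Alternatives were RLE scaling, library size alone, no filter, DESeq2 1.42.0, a replicate block, a fit of the compared groups alone and leaving out each library. At 96 h each line was instead left out with both its libraries. In place of the replicate block, the term for cell line was dropped there for BOM against DMSO. The replicate block took libraries of the same number as pairs. Deviations of same-numbered libraries at 10 d had positive r in every pair of groups, from 0.0501 to 0.480. For DMSO IFNg with DMSO they had r from 0.125 to 0.480 over 3 pairs. Those of libraries with different numbers had r of both signs, from -0.341 to 0.271. These ranges overlap, so they do not settle whether the numbers mark pairs. The main fit at 10 d took no account of the numbers, and a batch shared by same-numbered libraries was not tested. No libraries of a group agreed within sampling noise. Results on some other genes are not reported here.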

Additional observations from a re-analysis of the deposited data

Results flagged for a closer look

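Hey2 in vehicle tumor 3 (log2 CPM 1.31) lay further below the other 4 vehicle tumors than Dixon's test allows. Of the groups of members' values 28 were examined, and chance flags about 1 in 20.

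At 96 h the difference of BOM minus DMSO took opposite signs between lines in 3 members, with 1 library per line and treatment, and the difference between lines was not tested. For Hes6 it was -0.092 in RP-116, 0.030 in RP-48 and -1.51 in G8545 on the log2 CPM scale. For Hey2 it was -0.42 in RP-48 and 0.78 in G8545. For Nrarp it was 0.077 in RP-116, 0.77 in RP-48 and -1.11 in G8545.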

How the results depend on the processing

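Hes1, Hes5 and Hey1 kept their calls with BOM at 10 d, with and without IFNg, under all 16 alternatives, and Hes1 and Hes5 beside anti-PD1 under all 25. Of the members' fold changes, 508 kept direction and call under other settings, 12 changed sign, 10 gained a call and 6 lost one. Where a group was left with 1 library, that library was assumed to vary like the other groups. For the 96 h values below, what was left out was 1 line with both its libraries. Causes of the changes below were not tested.

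At 96 h edgeR called 2 genes by library size alone and 310 without the filter (3 members higher), and DESeq2 called 59 (3 members higher). Without the filter 1 member was higher in G8545 than in RP-48, and 548 genes were called for IFNg with DMSO and 506 with BOM. The test of BOM by IFNg called 67 genes without the filter, 13 in DESeq2 and 10 with the replicate block. DESeq2 called 86 genes for anti-PD1 against vehicle, 8 for BOM plus anti-PD1 against BOM (1 by library size alone) and 6 for BOM by anti-PD1. For BOM plus anti-PD1 against vehicle, 2 members were higher in DESeq2, 0 with the replicate block, and 0 of 83 called genes in a fit of only these groups. That fit gave 0 members for BOM against vehicle. Without vehicle tumors 1 and 2, chosen after seeing the data, BOM against vehicle called 3340 genes and 2 members, and BOM plus anti-PD1 against vehicle 3300 genes and 2 members.

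Signs turned for Hes6 in G8545 against RP-48 (-0.0026 by RLE, -0.018 without the filter, -0.0039 in DESeq2). They also turned for Nrarp at 96 h without cell line as a term (0.0028), and for Hes6 with anti-PD1 by library size alone (-0.0095). Nrarp turned to 0.0094 beside anti-PD1 and 0.064 against vehicle with the replicate block, and to 0.0050 in a fit of only these groups. Deviations of same-numbered tumors had r from -0.41 to 0.58, of both signs, which does not show whether their numbers mark pairs. The block changed no other member's call than that of Hes1 with BOM plus anti-PD1 against vehicle. Without vehicle tumors 1 and 2, Hes1 and Hes5 turned to 0.23 and 0.67 for anti-PD1 and to -0.24 and -0.51 for BOM by anti-PD1.

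With 1 library left out, genes called ranged from 178 to 356 for BOM IFNg against BOM, 2095 to 3729 for BOM IFNg against DMSO IFNg (0 to 1 member lower), 1858 to 3228 for BOM against DMSO at 10 d (3 to 4 members; 1858 without BOM library 1), 0 to 1 for BOM by IFNg and 0 to 149 at 96 h (0 to 2 members). In tumors they ranged from 1154 to 2945 for BOM against vehicle (0 to 2 members; 1154 without vehicle tumor 5), 646 to 2668 for BOM plus anti-PD1 against vehicle (0 to 2 members), 0 to 1 for BOM plus anti-PD1 against BOM and 0 to 35 for anti-PD1, and members higher beside anti-PD1 from 2 to 4. With 1 line left out at 96 h, members lower in RP-116 ranged from 3 to 5.

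Fold changes whose sign turned ranged, at 10 d, from -0.14 to 0.20 (Hes1), -0.47 to 0.29 (Hey1) and -0.17 to 0.40 (Hey2) for BOM IFNg against BOM, from -0.42 to 0.10 (Hes1), -0.15 to 0.027 (Hey1) and -0.17 to 0.37 (Nrarp) for DMSO IFNg against DMSO, from -0.053 to 0.47 (Hes1) and -0.39 to 0.36 (Hey1) for BOM by IFNg, and from -0.23 to 0.26 (Hes6) for BOM. At 96 h, with 1 line left out, they ranged from -0.35 to 0.95 (Hey2) and -0.66 to 0.54 (Nrarp) for BOM, from -1.35 to 1.02 (Hes1) for RP-116, and Hes6 in G8545 was -0.055. In tumors they ranged from -0.21 to 0.11 (Hes1) and -0.051 to 0.14 (Hey2) for BOM plus anti-PD1 against BOM, from -0.010 to 0.094 (Hes6) and -0.16 to 0.0029 (Nrarp) beside anti-PD1, from -0.066 to 0.11 (Nrarp) for BOM plus anti-PD1 against vehicle, from -0.072 to 0.44 (Heyl) for BOM against vehicle, and from -0.88 to 0.083 (Hes5), -0.030 to 0.063 (Hes6) and -0.0072 to 0.16 (Nrarp) for anti-PD1. Hes5, Hey2 and Heyl had under 10 counts in some libraries, which limits what could be detected.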
